A study of Mus musculus with 75 samples.

Results

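Total RNA (Input) of CD4 effector T cells stimulated with beads in the presence of regulatory T cells (Tregs) was compared with total RNA of effector T cells stimulated without Tregs, in the RiboTag assay. The members are 10 libraries of 75 in the series, 5 from cultures with Tregs and 5 from stimulated cultures, taken by their titles and paired by mouse, so that each of 5 mice gave 1 library to each group. The effector cells of both groups were CD4+CD25- cells from spleen and lymph nodes of mice bred from the line B6N.129-Rpl22tm1.1Psam/J crossed with the line B6.Cg-Tg(Cd4-cre)1Cwi/BfluJ. These cells carry a hemagglutinin-tagged Rpl22, a protein of the large ribosomal subunit, which the Cd4-driven Cre recombinase switches on. Both groups were cultured with beads coated with antibodies to CD3, a part of the T cell receptor complex, and CD28, a co-stimulatory receptor. The Tregs were CD4+YFP+ cells, and the labels' protocols name Foxp3YFP-Cre mice as a source of sorted cells. Control cultures were matched for cell density in either of 2 ways, and the labels do not say which was used for which library. The sources used here do not give ages, the number of Tregs per effector cell, the time in culture, or whether Tregs were taken out before lysis. The series also holds, from the same cultures, RNA bound to tagged ribosomes (IP), IL7-rested cultures of the same 5 mice, and the SPEED assay on cells of 4 other mice (B6.SJL-PtprcaPepcb/BoyJ).

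Tregs are CD4 T cells, marked by the transcription factor Foxp3, that hold back the activation of their neighbours. In a suppression assay of this kind they share a well with effector cells. When T cells are activated through CD3 and CD28 they leave quiescence, raise the RNA of genes for growth and division, and lower that of genes of the resting state. By the title of the series, the study asked how Tregs act on translation during this activation. Input RNA gives the RNA levels of the lysed cells, against which the ribosome-bound RNA is read.

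The values are read counts per gene. The tables name genes by Ensembl identifier only, and none of the 53465 identifiers could be paired with a symbol here, because the RefSeq table at hand holds an Ensembl identifier in 0 of its rows. Genes are therefore described by their measured behaviour, 4 identifiers are described singly, and no marker list of Tregs, T cells or other cells could be read from these libraries. The label of the cells was thus not checked against markers, and RNA of Tregs left in the culture and RNA of effector cells cannot be told apart by name. In bulk RNA, fewer cells that express a gene and less RNA of it per cell cannot be told apart either. Libraries with Tregs held 1945340 to 2805743 counts and stimulated libraries 1658481 to 2689657. A count of at least 1 was found for 14521 to 15230 genes with Tregs and for 14001 to 14792 genes in stimulated libraries. With every library thinned to 1658481 counts these were 13977 to 14247 genes with Tregs and 13848 to 14154 stimulated, higher with Tregs in 5 of 5 mice. Of 20836 identifiers with a count, 10221 passed the filter on low counts, and they held 99.4% of all counts.

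Adding Tregs changed the RNA level of many genes by small amounts, upwards about as often as downwards. With Tregs, 988 genes were higher and 965 lower than in stimulated cultures of the same mouse (9.67% and 9.44% of the genes tested, 19.1% in all; edgeR's quasi-likelihood test with the mouse as a block, two-sided, Benjamini-Hochberg adjusted p under 0.05, n = 5 mice). The median fold change was 1.42 for the genes that rose and 1.27 for the genes that fell. A change of at least 1.5-fold was found for 388 of the genes that rose and 190 of those that fell. At least 2-fold were 119 genes higher and 85 lower, 1.16% and 0.832% of the genes tested. At least 4-fold were 14 higher and 18 lower. The median over all genes tested was 0.00 on the log2 scale. Without the mouse in the fit, the same 10 libraries gave 948 genes, 530 higher and 418 lower. Without mouse 5 the paired fit gave 1274 genes.

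**Figure D1:**
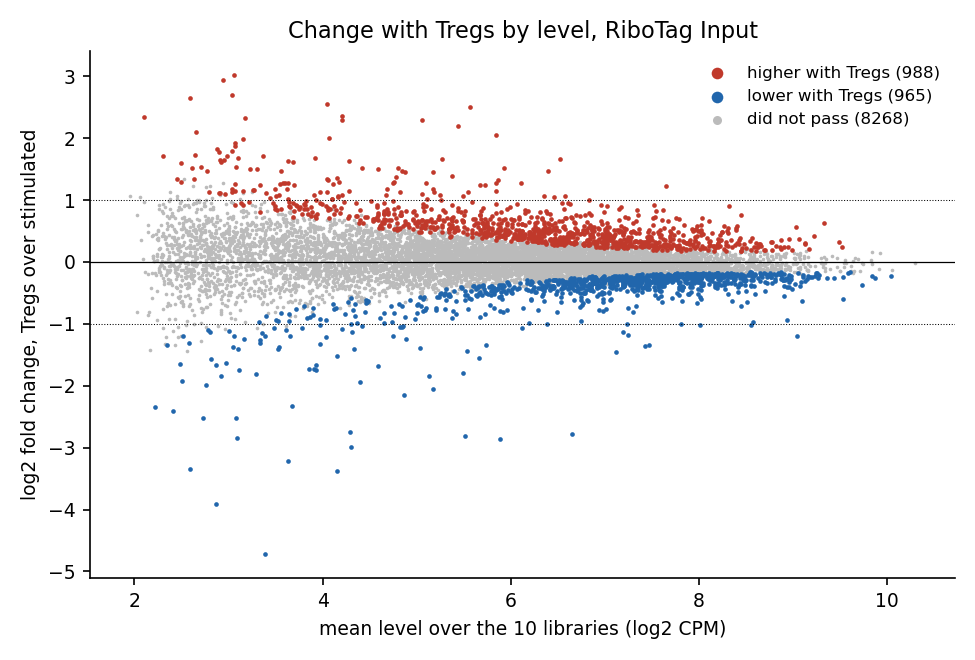
Each point is 1 of the 10221 genes tested. The horizontal axis is its mean level over the 10 libraries (log2 CPM, counts scaled to the library total adjusted by its TMM factor). The vertical axis is its log2 fold change, Tregs over stimulated. The 988 genes higher with Tregs are red, the 965 lower are blue, and dotted lines mark a 2-fold change; most coloured points lie inside these lines.

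The direction of the change differed with the level of the gene. Levels here are CPM, averaged over the 10 libraries. They are scaled to the library total adjusted by its TMM factor and not divided by gene length. Of the 3494 genes with a mean of 100 CPM or more, 394 were higher and 658 lower with Tregs. Of the 3813 genes of 30 to 100 CPM, 391 were higher and 204 lower. Among the 1865 genes of 10 to 30 CPM the counts were 153 higher and 70 lower, and among the 1049 genes under 10 CPM they were 50 and 33. The median log2 fold change of all genes in a class was -0.06, 0.03, 0.09 and 0.13 in that order of classes. After thinning to 1 depth, the class of 100 CPM or more had 375 higher and 602 lower, and that of 30 to 100 CPM had 360 higher and 178 lower. The share of genes past the test was 30.1% at 100 CPM or more and 7.91% under 10 CPM, while the median standard error of the log2 fold change was 0.07 and 0.36 in these classes. Low genes passed with larger changes: the median size of a called change was 1.51 on the log2 scale under 10 CPM and 0.31 at 100 CPM or more.

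In both directions the median change had the same sign in 5 of 5 mice and was smallest in mouse 2. Over the genes that passed as higher, the median log2 difference within a mouse, Tregs minus stimulated, was 0.52, 0.37, 0.61, 0.48 and 0.50 in mice 1 to 5. Over the genes that passed as lower it was -0.40, -0.27, -0.38, -0.30 and -0.37. These medians describe genes that were chosen on the same libraries. A total of 862 of the 988 higher genes and 853 of the 965 lower genes moved in their direction in 5 of 5 mice. In 368 of the higher genes and 335 of the lower genes the 5 libraries with Tregs did not overlap the 5 stimulated libraries. Over all genes tested, 397 (3.88%) were higher and 369 (3.61%) lower without overlap. Across the 10221 genes, the paired differences of 2 mice correlated with r between 0.28 and 0.44 over the 10 pairs of mice. These are correlations across genes, and the points of a mouse share their 2 libraries.

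To see the change in a mouse that had no part in the choice of genes, each mouse was left out in turn and the genes called in the other 4 were read in it. Genes chosen as higher in 4 mice had a median log2 difference of 0.50, 0.26, 0.57, 0.44 and 0.48 in the mouse left out (mice 1 to 5). Genes chosen as lower had -0.41, -0.21, -0.37, -0.24 and -0.38. The share of chosen genes with the same sign in the mouse left out was 93.7% for mouse 1, 82.5% for mouse 2, 92.4% for mouse 3, 90.3% for mouse 4 and 95.1% for mouse 5. Mouse 2 had the smallest change in both directions by either reading, and both directions were seen in each of the 5 mice.

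**Figure D2:**
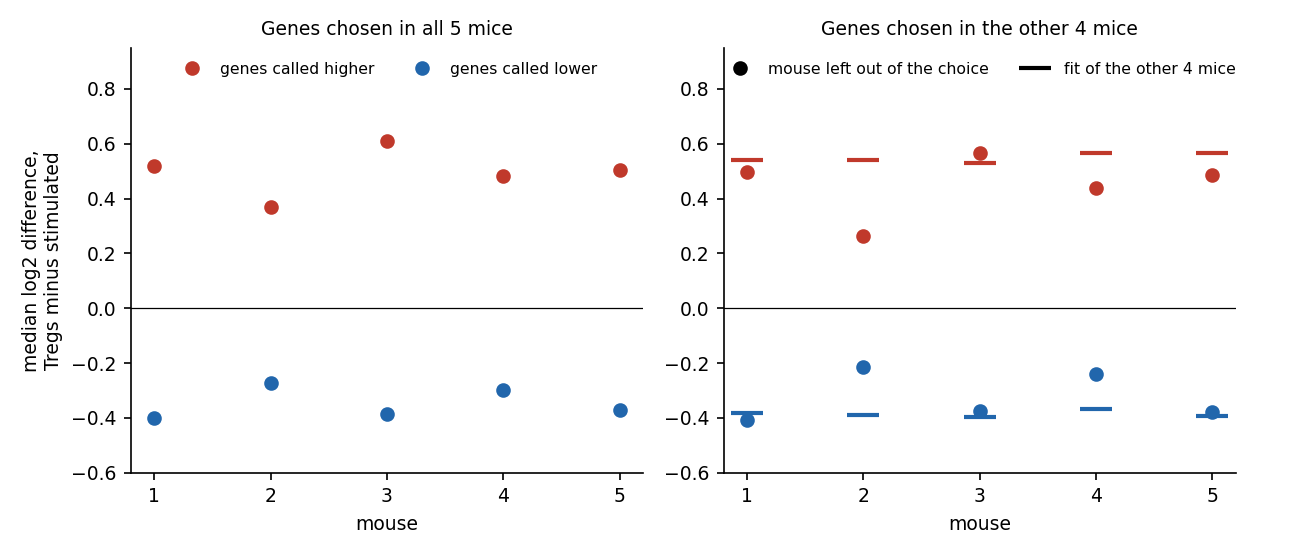
Median log2 difference within each mouse, Tregs minus stimulated, of genes called higher (red) or lower (blue), by mouse. On the left the genes were called in all 5 mice; on the right they were called in the other 4 mice, with the value of the mouse left out as a circle and the 4-mouse fit as a bar. In mouse 2 the circles, at 0.26 and -0.21, lie nearest to 0.

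Genes for a closer description were taken by a rule: an adjusted p under 0.05, a mean of at least 8 CPM and the same sign in 5 of 5 mice, which 1664 genes met. Of these the 15 largest rises and the 15 largest falls were kept. Genes outside the rule reached larger rises, up to 8.14-fold. The 15 that rose had log2 fold changes of 1.63 to 2.55 (median 1.99), with a mean level of 12.9 to 136 CPM with Tregs and 2.95 to 42.8 CPM stimulated. The 15 that fell had log2 fold changes of -4.72 to -1.80 (median -2.75), with 0.627 to 26.3 CPM with Tregs and 14.0 to 172 CPM stimulated. Adjusted p was between 2.05e-07 and 0.00296 for those that rose and between 8.86e-08 and 0.000725 for those that fell (edgeR). In 12 of the first and 13 of the second the 2 groups of libraries did not overlap. These genes were chosen for large changes in the same libraries, which favours a low p and groups that do not overlap. Over all genes tested, 3.88% were higher and 3.61% lower without overlap. In the IL7-rested Input libraries, 6 of the 15 genes that fell averaged under 1 CPM, against 1 of the 15 that rose. A gene that fell could meet the rule through its stimulated libraries alone. These counts therefore describe the chosen genes, and cannot show how genes low at rest respond to Tregs.

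Of the genes that met the rule, ENSMUSG00000046971 had the largest rise. Its level was 26.4, 26.4, 18.9, 28.7 and 27.6 CPM with Tregs (mice 1 to 5), against 1.2, 3.26, 5.82, 4.31 and 6.72 CPM in stimulated cultures. The lowest library with Tregs, that of mouse 3, lay above every stimulated library. The fitted log2 fold change was 2.55 (SE 0.30, edgeR adjusted p = 3.54e-05). In IL7-rested Input it was at 2.35 and 4.16 CPM in mice 1 and 2 and at 0 counts in the other 3 mice. The RNA bound to tagged ribosomes gave 21.5, 19.2, 12.0, 17.7 and 16.3 CPM with Tregs, against 1.36, 3.52, 6.18, 0.942 and 6.05 CPM stimulated. In SPEED Input the gene was at 13.2, 11.3, 16.9 and 17.3 CPM with Tregs, against 6.51, 13.1, 14.3 and 18.5 CPM stimulated, and at 0 counts in all 4 untreated libraries. The groups overlapped there, and the fitted change was 0.19 on the log2 scale (SE 0.30, edgeR adjusted p = 0.724). The difference of the change between the assays, RiboTag minus SPEED, was 2.36 on the log2 scale and passed the test (SE 0.44, edgeR adjusted p = 0.0122). The gene was chosen for its rise in RiboTag Input, which favours a large difference.

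By the same rule ENSMUSG00000047415 came next among the rises. It was at 64.9, 82.8, 71.4, 73.2 and 87.9 CPM with Tregs, against 14.4, 15.8, 19.4, 5.88 and 13.4 CPM stimulated. The lowest library with Tregs, that of mouse 1, lay well above the highest stimulated library, that of mouse 3. The fitted log2 fold change was 2.51 (SE 0.20, edgeR adjusted p = 1.21e-06). The IL7-rested cultures, at 16.0, 21.7, 37.9, 18.3 and 16.6 CPM, lay below all libraries with Tregs. In SPEED Input it rose as well, at 41.3, 56.5, 70.9 and 79.1 CPM with Tregs, against 11.2, 26.5, 20.5 and 30.7 CPM stimulated. The log2 fold change there was 1.48 (SE 0.18, edgeR adjusted p = 0.00422), and its difference between the assays did not pass (1.02 ± 0.29 SE, edgeR adjusted p = 0.113).

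The largest fall under the rule was that of ENSMUSG00000026630. It had 2, 4, 1, 0 and 1 counts with Tregs, against 12, 21, 53, 75 and 57 counts in stimulated cultures. As levels these were 0 to 1.39 CPM with Tregs, against 7.20, 9.77, 25.7, 29.4 and 21.3 CPM stimulated. The libraries with Tregs were near the limit of detection in every mouse, and stimulated mice 1 and 2 lay below stimulated mice 3 to 5. The fitted log2 fold change was -4.72 (SE 0.52, edgeR adjusted p = 2.13e-05), and with mice 3 to 5 only it was -6.38. The size of this change rests on few counts with Tregs. IL7-rested Input held 2 counts in mouse 2 and 0 in the other mice. In IP it was at 0 to 3.89 CPM with Tregs, against 5.28 to 25.9 CPM stimulated.

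By the rule ENSMUSG00000037820 came next among the falls. It was at 1.01, 12.9, 0.740, 2.50 and 0.718 CPM with Tregs, against 39.0, 48.8, 17.5, 27.4 and 25.4 CPM stimulated. The groups did not overlap, and the library of mouse 2 with Tregs stood apart from the other 4 with Tregs. The fitted log2 fold change was -3.37 (SE 0.38, edgeR adjusted p = 2.67e-05), and without mouse 2 it was -4.38. No IL7-rested Input library held a count of it. In SPEED Input both genes that fell were too low to test. ENSMUSG00000026630 was at 0.698 CPM or less and ENSMUSG00000037820 at 1.51 CPM or less in every library there, with Tregs or stimulated.

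**Figure D3:**
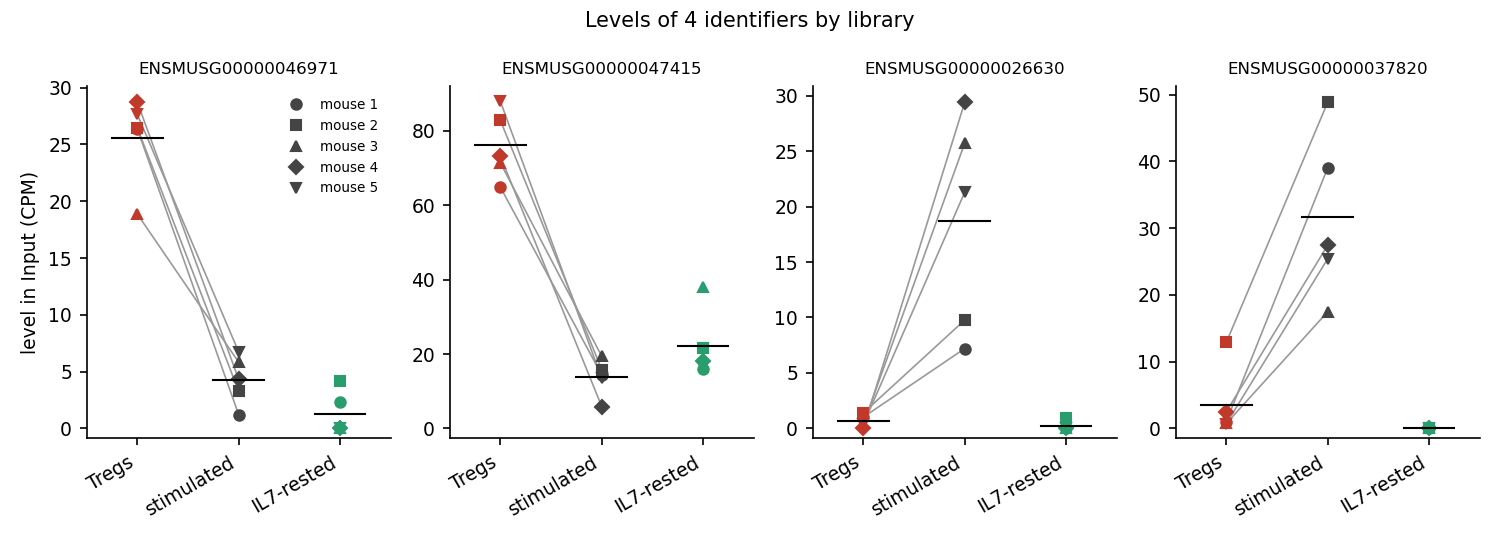
Level in Input (CPM) of 4 identifiers in every RiboTag library, with cultures with Tregs, stimulated cultures and IL7-rested cultures from left to right in each panel. Grey lines join the libraries of 1 mouse and black bars are group means (n = 5). In all 4 panels the 5 libraries with Tregs lie on 1 side of the 5 stimulated libraries.

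Genes that passed both for Tregs and for stimulation moved with Tregs mostly against their own change on stimulation. The change on stimulation was taken from SPEED Input, stimulated over untreated cells of 4 other mice, so that no library is shared with the comparison of Tregs in RiboTag. There 54.3% of the genes passed the test (27.5% higher, 26.8% lower; edgeR, adjusted p under 0.05). Of the 2696 genes that fell on stimulation and were tested for Tregs in RiboTag Input, 22.9% were higher with Tregs and 3.75% lower. Of the 2880 genes that rose on stimulation, 22.2% were lower with Tregs and 3.30% higher. Of the 4448 genes that did not pass for stimulation, 5.89% were higher and 4.43% lower. These shares stand beside 9.67% higher and 9.44% lower over all genes tested. The median log2 fold change with Tregs was 0.16 for genes that fell on stimulation and -0.12 for genes that rose.

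The median change with Tregs was larger for genes that fell at least 2-fold on stimulation than for those that fell less, in 5 of 5 mice, and was nearly level over the genes that rose. Genes that fell at least 4-fold on stimulation had a median log2 fold change of 0.26 with Tregs (0.11 to 0.45 over the 5 mice, 298 genes). Those that fell 2- to 4-fold had 0.25 (0.15 to 0.43, 1033 genes), and those that fell 1.41- to 2-fold had 0.14 (0.08 to 0.22, 1400 genes). Genes within 1.41-fold on stimulation had -0.01 (-0.01 to 0.01, 4323 genes). On the other side the median was -0.11 for genes that rose 1.41- to 2-fold (-0.17 to -0.05, 1342 genes) and -0.12 for those that rose 2- to 4-fold (-0.18 to -0.07, 897 genes). It was -0.14 for genes that rose 4- to 8-fold (-0.18 to -0.07, 272 genes) and -0.09 for those that rose at least 8-fold (-0.17 to -0.02, 459 genes). In each class outside the middle one, the median had the same sign in 5 of 5 mice.

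**Figure D4:**
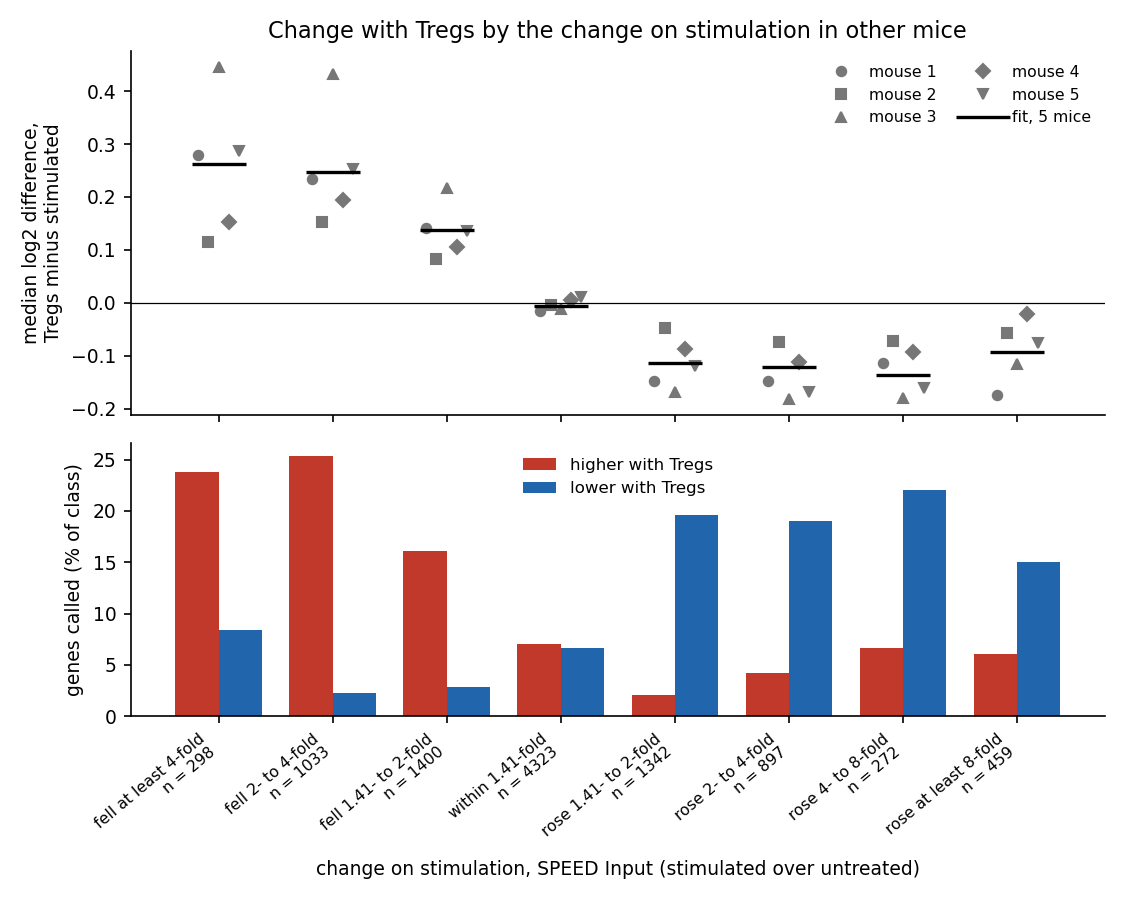
Top: median log2 difference, Tregs minus stimulated, in each of 5 RiboTag mice (symbols) and in the fit (bars), for genes sorted by their change on stimulation in SPEED Input of other mice. Bottom: share of each class called higher (red) or lower (blue) with Tregs. Medians lie above 0 in all 3 classes that fell on stimulation and below 0 in all 4 classes that rose.

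A minority of genes moved with Tregs in the same direction as on stimulation in SPEED Input. They were 95 genes that rose on stimulation and were higher with Tregs, 21 of them at least 2-fold, and 101 genes that fell on stimulation and were lower with Tregs, 15 at least 2-fold. Of the 15 largest falls under the rule, 3 fell on stimulation in SPEED Input. All 3 rose on stimulation in RiboTag Input, stimulated over IL7-rested. Their log2 fold changes on stimulation were 3.83, 2.96 and 1.71 there, against -1.86, -2.35 and -2.96 in SPEED Input, stimulated over untreated. The RiboTag values share their stimulated libraries with the comparison of Tregs, which favours opposed directions. Among the genes that fell at least 4-fold on stimulation, 25 of 298 (8.39%) were lower with Tregs, against 23 of 1033 (2.23%) of those that fell 2- to 4-fold. ENSMUSG00000046971 belongs to this minority: in SPEED Input it rose on stimulation (edgeR adjusted p = 0.00188), with no count in any untreated library, so that the size of the fold was not measured. The opposed direction prevailed in each of the 3 classes of level from 10 CPM upwards. Of the genes of 100 CPM or more, 34.1% of the 1422 that rose on stimulation were lower with Tregs and 1.62% higher, and 31.9% of the 902 that fell on stimulation were higher and 6.76% lower. Of the genes of 30 to 100 CPM, 11.2% of the 952 that rose were lower with Tregs and 4.52% higher, and 21.0% of the 1176 that fell were higher and 2.30% lower. Of the genes of 10 to 30 CPM, 10.6% of the 360 that rose on stimulation were lower with Tregs and 6.11% higher, and 14.8% of the 454 that fell were higher and 2.20% lower. Of the genes under 10 CPM that rose on stimulation, 9 of 146 were lower and 7 higher. Of those under 10 CPM that fell on stimulation, 15 of 164 were higher with Tregs and 3 lower.

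Few of the genes tested were uncounted in resting cells. Of the 10221 genes, 43 had no count in any of the 5 Input libraries of IL7-rested cells. With Tregs 11 of them were lower, 8 of these at least 2-fold, and 4 were higher, 3 of these at least 2-fold. Their median log2 fold change was -0.30, against 0.00 over all genes tested. The shares, 25.6% lower and 9.30% higher, stand beside 9.44% and 9.67% over all genes. A gene uncounted at rest could pass the filter on low counts through the group of libraries in which it was high. The shares therefore describe the 43 genes that passed, and cannot show how genes uncounted at rest respond to Tregs.

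The same comparison in SPEED Input, with cells of 4 other mice, moved most of these genes in the same direction. In SPEED Input 414 genes were higher with Tregs and 337 lower (3.93% and 3.2% of 10541 genes tested, 7.12% in all; edgeR with the mouse as a block, adjusted p under 0.05). It was 166 genes when the mouse was left out of the model, and 12 when mouse 3 was left out of the libraries. Of the 988 genes higher in RiboTag Input, 981 were tested in SPEED Input, and their median log2 fold change was 0.29 there and 0.51 in RiboTag. The sign was the same for 840 of them (85.6%), and 211 passed in SPEED as higher and 3 as lower. Of the 965 genes lower in RiboTag Input, 939 were tested, with a median of -0.21 in SPEED and -0.34 in RiboTag. The sign was the same for 776 (82.6%), and 196 passed as lower and 9 as higher. The genes called higher in both make up 21.5% of the RiboTag genes tested there and 51.0% of the SPEED list, and those called lower in both make up 20.9% and 58.2%. Read the other way, the 412 genes chosen as higher in SPEED and tested in RiboTag had a median of 0.57 in SPEED and 0.35 in RiboTag, so the smaller value went with the assay in which the genes were not chosen. Across 10056 genes tested in both, the log2 fold changes correlated with r = 0.40, as a description across genes that share the libraries of their assay.

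**Figure D5:**
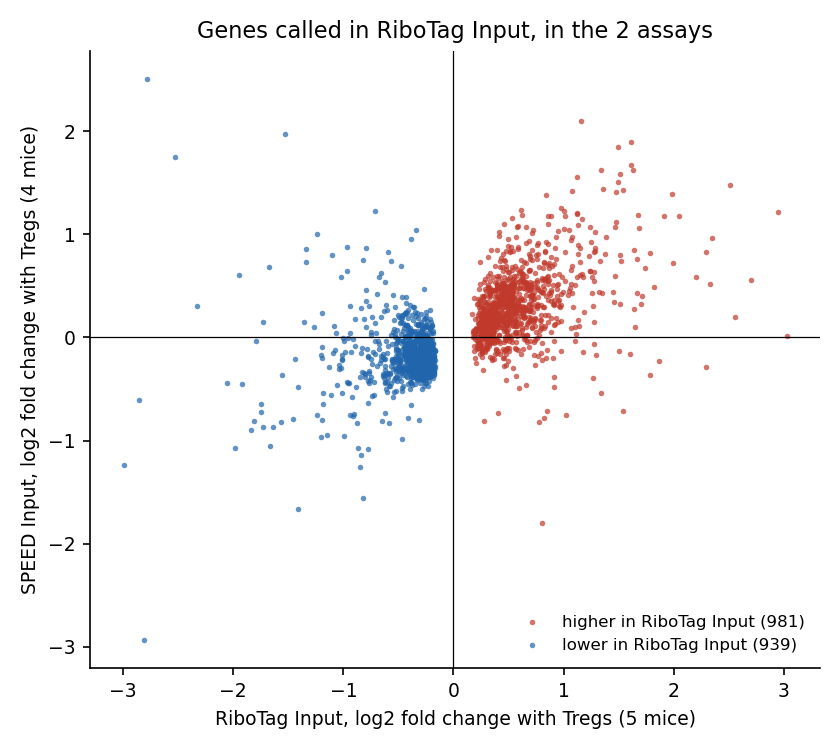
Log2 fold change with Tregs in RiboTag Input (horizontal axis, 5 mice) and SPEED Input (vertical axis, 4 mice) of the genes called in RiboTag Input and tested in both assays. Of 981 genes higher in RiboTag (red), 840 lie above 0 in SPEED, and of 939 genes lower (blue), 776 lie below 0.

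A difference of the change with Tregs between the assays passed the test for 133 of 10846 genes (1.23%; edgeR, interaction in 1 fit of 18 libraries, adjusted p under 0.05). In 58 (0.535%) the change was higher in RiboTag Input and in 75 (0.691%) it was lower. Of the 129 that were tested in both assays, 93 had opposite signs in the 2 assays, 12 passed in both with opposite directions and 6 in both with the same direction. These genes were chosen for a difference between the assays, which itself favours opposite signs. The 93 therefore describes the chosen genes only. Without the mouse in the fit 50 genes differed, and with 1 mouse left out between 60 and 167. Among the 30 genes of the rule, 6 of the 15 that rose and 5 of the 15 that fell differed between the assays. The 30 genes were chosen for large changes in RiboTag Input, and the same values enter the difference. Such a choice favours a difference, so these counts cannot be set against the 1.23% over all genes. Of the 15 that rose, 14 had the same sign in SPEED Input (log2 fold changes of -0.29 to 1.62, median 0.76) and 7 passed there. Of the 15 that fell, 10 could be tested in SPEED Input, and 7 had the same sign (-2.93 to 2.51, median -0.52), with 2 that passed. The gene at 2.51 did not pass there and had 1 library with Tregs at 42.0 CPM. Its other SPEED Input libraries were at 1.96 to 9.09 CPM with Tregs and 0 to 4.28 CPM stimulated. Among the 5 falls that differed, 1 was too low to test in SPEED Input, with means of 3.62 CPM with Tregs and 1.94 CPM stimulated. Assay, mouse strain and mice differ together between RiboTag and SPEED and cannot be told apart.

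The RNA bound to tagged ribosomes of the same cultures changed with Tregs much as Input did. Since the tag is in the effector cells, IP reads their ribosomes, while Input reads all RNA of the lysed cells. Whether these still held Tregs is not given, and how much untagged RNA the IP holds was not measured here. In IP 786 genes were higher with Tregs and 768 lower (7.82% and 7.64% of 10048 genes, 15.5% in all; edgeR with the mouse as a block, adjusted p under 0.05), and 513 in all without the mouse in the fit. The genes chosen as higher in Input had a median log2 fold change of 0.51 in Input and 0.43 in IP, and the genes chosen as lower had -0.34 and -0.31. Chosen in IP, the genes that rose had 0.59 in IP and 0.47 in Input. A difference of the change between Input and IP passed for 0 of 10548 genes (0%; edgeR with the culture as a block, adjusted p under 0.05), with 424 genes (4.02%) at an unadjusted p under 0.05. Of the genes higher with Tregs in Input, the middle 90% had a difference, Input minus IP, between -0.23 and 0.57 on the log2 scale (median 0.08), and of the genes lower between -0.36 and 0.21 (median -0.04). Input and IP come from the same cultures, so IP is no independent repeat of the change in Input.

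Among genes too low to test, 10 had at least 1 count in all 5 libraries with Tregs and 0 counts in all 5 stimulated libraries, and 0 had the reverse. These 10 genes, chosen on the Input libraries, summed to 175 counts over the libraries with Tregs, with at most 16 counts of a gene in 1 library. In IP they had 167 counts with Tregs and 11 stimulated, and in SPEED Input 177 with Tregs and 84 stimulated. IL7-rested Input held 49 counts in 8 of them, and SPEED untreated Input held 145. Since stimulated libraries were shallower on average, the count of such genes was repeated at 1 depth, where 5 genes were seen in every library with Tregs alone and 6 in every stimulated library alone.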

How the data were processed

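The authors deposited 1 table of raw read counts per gene for each assay, with whole-number counts. The submitters' processing notes name genome build GRCm38, SAMtools 1.2, FastQC 0.11.3, Picard 1.134 and HTSeq 0.4.1. The sources used here do not give the aligner, or whether repeated reads were removed. Libraries were made with SMART-Seq v4 and NexteraXT kits, per the labels' protocols, kits that keep no strand, so a gene and its antisense partner cannot be told apart. Of the RiboTag table, 16 columns that match no sample were left out.

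Fits were made with edgeR 4.0.16 in R 4.3.3, after filterByExpr (minimum count 10, minimum total 15), with TMM factors, robust quasi-likelihood estimates over the compared groups alone, and the mouse as a block. All tests are two-sided, with no minimum fold and a Benjamini-Hochberg adjusted p under 0.05 over all genes tested. Differences between assays, and between Input and IP, were tested as interactions. The standard error of a log2 fold change is that change divided by the root of its F statistic, and log2 CPM of single mice used a prior count of 2. Each library is scaled to its total adjusted by its TMM factor, so a change in total RNA does not appear. DESeq2 1.42.0, other scaling, filters and fits were alternatives.

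Mouse numbers pair the libraries, since the labels give the same mouse for both. In RiboTag Input the libraries of a mouse deviated together from their group means (r of 0.19 to 0.30); in SPEED Input r was 0.02 to 0.11, and the pairing rests on the labels alone. The p-values of the paired fits rest on the spread, across these mice, of the difference within a mouse. That spread also holds differences between single cultures and libraries.

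The comparison and all lists were chosen with earlier results of these data known. Named genes were the 15 largest rises and 15 largest falls with adjusted p under 0.05, a mean of at least 8 CPM and the same sign in 5 of 5 mice; without symbols, 2 identifiers of each direction are printed, and the planned symbol lists and cell type markers were not analysed here. For the same reason no sequence is shown.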

Additional observations from a re-analysis of the deposited data

Results flagged for a closer look

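Some single libraries stood apart from the other 4 of their group (Dixon's test at 95%, over 27 groups of values, of which chance flags about 1 in 20). ENSMUSG00000046971 was at 18.9 CPM in the library of mouse 3 with Tregs, against 26.4 to 28.7 CPM in the other 4 mice with Tregs. ENSMUSG00000037820 was at 12.9 CPM in the library of mouse 2 with Tregs, against 0.718 to 2.50 CPM in the other 4. In IL7-rested Input, ENSMUSG00000047415 was at 37.9 CPM in mouse 3, against 16.0 to 21.7 CPM in the others, and ENSMUSG00000026630 was at 0.924 CPM (2 counts) in mouse 2, against 0 in the others. With the other 4 libraries at 0, the test flags any count at all, so this last flag carries no weight.

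The change with Tregs differed between RiboTag Input and SPEED Input in 133 genes, by the test of the difference itself. One of them was ENSMUSG00000046971, with a difference, RiboTag minus SPEED, of 2.36 on the log2 scale. It was chosen for its rise in RiboTag Input, which favours a large difference.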

How the results depend on the processing

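Of 14 alternatives to the count of 1953 genes changed with Tregs in RiboTag Input, 10 gave a count within 1.5 times, among them DESeq2 (1391 genes) and mice 3 to 5 only (1591). Without the mouse as a replicate block the count was 948. With all 30 RiboTag libraries in the fit it was 843 with the block kept and 487 without the block. With 1 mouse left out it was 1274 to 1890. In RiboTag IP the count of 1554 was 513 without the block and 958 to 1307 with 1 mouse left out. In SPEED Input the count of 751 was 166 without the block, 1180 without a filter on low counts, and 12 to 820 with 1 mouse left out. The 133 genes that differed between the assays were 50 without the block and 60 to 167 with 1 mouse left out. The cause of these changes was not tested, beyond fewer mice or genes in the fits that leave some out. The count of 0 genes for Input minus IP was 0 in all 7 alternatives run with edgeR. The 4 identifiers kept their direction and passed in every alternative in which they were tested, at adjusted p of 0.00598 or less. The share of genes called for both Tregs and stimulation that moved in opposite directions, 86.5%, lay between 84.1% and 87.8%. Of the 30 genes of the naming rule, 30 passed in the same direction without the block, 26 with all 30 libraries and no block, 29 with mice 3 to 5 only, 29 of the 29 tested after thinning, and 15 of the 15 tested at a minimum count of 50. The 4 identifiers and the 30 genes were chosen for large changes in these same libraries, which favours passing again. Alternatives for the planned lists of symbols were not run, since no symbols could be matched. Depth limits what is seen of low genes: under 10 CPM the median standard error was 0.36 on the log2 scale. Thinning to 1 depth and the use of mice 3 to 5 only were chosen after seeing the data, as was the comparison of Input with IP.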

Other observations

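Cell cycle genes showed little change in median with Tregs. For each phase, the 50 genes with the highest net count of marker pairs were taken from the mouse cell cycle pairs that come with scran, which name genes by Ensembl identifier; these lists were chosen after the data were seen. In RiboTag Input the G2M list had 48 genes tested, with 4 higher and 3 lower with Tregs and a median log2 fold change of -0.04 (-0.23 to 0.06 over the 5 mice). The S list had 4 higher and 5 lower of 47 and a median of 0.00, and the G1 list 3 higher and 7 lower of 44 and a median of -0.05. Over all genes tested the median was 0.00, with 9.67% higher and 9.44% lower. On stimulation in SPEED Input the G2M list had 36 genes higher and 6 lower of 47, with a median log2 fold change of 2.90, against a median of 0.02, 27.5% higher and 26.8% lower over all genes tested there. In SPEED Input with Tregs 1 of 48 G2M genes was higher and 2 were lower, with a median of -0.12, against 3.93% higher and 3.2% lower over all genes tested.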
